A study of Mus musculus with 23 samples.

Results

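Transcript levels of 6 matrix metalloproteinases (Mmp2, Mmp3, Mmp9, Mmp11, Mmp13 and Mmp14) and 3 of their tissue inhibitors (Timp1, Timp2 and Timp3) were described in E0771 mammary tumors of mice that differed in obesity and in the way weight was lost. The 9 genes were chosen by symbol, each had 1 probe set on the array, and together they were 9 of 19505 genes measured. By mean signal, all 9 lay above the limit used for low signal, 4.77 on the log2 scale. In single tumors, Mmp9 fell below that limit in 2 arrays, Mmp11 in 2 and Timp3 in 1.

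E0771 is a mammary tumor cell line from C57BL/6 mice that serves as a model of triple-negative breast cancer, and the same line was injected into the mammary fat pad of every mouse. Female C57BL/6NCrl mice, 8 weeks of age when purchased, were kept lean on a low-fat diet (CON-LFD, n = 6) or made obese on a diet with 60% of energy from fat for 15 weeks. Obese mice then stayed on the high-fat diet (DIO-HFD, n = 6), were switched to the low-fat diet (DIO-LFD, n = 5), or had vertical sleeve gastrectomy, a removal of most of the stomach, followed by the low-fat diet (DIO-VSG, n = 6). Mice without gastrectomy had a sham operation, so DIO-VSG tumors differed from DIO-LFD tumors in the operation, and from DIO-HFD tumors in both operation and diet. Cells were injected 22 weeks after the diets began and tumors were taken 4 weeks later.

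RNA of each of the 23 tumors was hybridized to its own Clariom S array, and levels are given as log2 signal, on which a difference of 1 is a doubling. Array medians ran from 6.13 to 6.5. Groups follow the sample titles, and for 2 arrays, DIO-LFD 1 and DIO-VSG 1, another label names a different group. In 8 arrays the mean of a list of 25 skeletal muscle genes was over 9 (CON-LFD 3 and 5, DIO-HFD 1, DIO-LFD 1, 4 and 5, DIO-VSG 2 and 4). For the metalloproteinase and inhibitor genes, a difference is also given without these arrays where leaving them out turned its sign or moved it by over 1.5 times. Of a list of genes for E0771 and epithelial identity, Vim averaged 17.47, Krt8 12.40 and Erbb2, the gene of the receptor HER2, 9.77. Epcam (4.61), Krt18 (4.34), Esr1 (4.55) and Pgr (3.59) were under the limit for low signal. Whole-tumor RNA does not show which cells these transcripts came from. In RNA of whole tumors, fewer cells of a type and less RNA per cell cannot be told apart.

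Matrix metalloproteinases are zinc-dependent enzymes that cut collagens, gelatin, laminin and other parts of the extracellular matrix, as well as growth factors and receptors bound to it. Most are secreted as inactive proenzymes, while MMP-14 is held in the cell membrane. The tissue inhibitors bind the active site of these enzymes, and TIMP-2 also forms a bridge by which MMP-14 on the cell surface activates proMMP-2. In mammary tumors, much of the metalloproteinase transcript is known to come from fibroblasts and leukocytes, not from the cancer cells alone.

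The genes differed in the sequence before their start. RefSeq promoter windows (mouse build GRCm38.p6, 250 bases before to 50 after the annotated start) were at hand for 7 of the 9 genes. Mmp2 and Mmp9 were not matched. Mmp13 and Mmp3 lie in a run of 10 neighboring metalloproteinase genes on chromosome 9, with Mmp12 between them. Their windows are shown first because these genes varied together between tumors, and the Mmp14 and Timp2 windows because that pair did so too. In the chromosome 9 windows, capitals mark TGANTCA, the letters bound by the AP-1 transcription factor, and TATAAA, the letters of the TATA box. In the other windows, capitals mark GGGCGG, the GC box.
Mmp13 (chr9:7272264-7272563, plus strand): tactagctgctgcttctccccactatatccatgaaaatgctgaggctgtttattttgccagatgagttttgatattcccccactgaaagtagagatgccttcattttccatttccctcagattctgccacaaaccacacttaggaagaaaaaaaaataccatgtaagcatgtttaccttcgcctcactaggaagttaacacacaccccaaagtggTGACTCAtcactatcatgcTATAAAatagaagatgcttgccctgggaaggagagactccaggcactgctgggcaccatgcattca
Mmp12 (chr9:7347124-7347423, plus strand): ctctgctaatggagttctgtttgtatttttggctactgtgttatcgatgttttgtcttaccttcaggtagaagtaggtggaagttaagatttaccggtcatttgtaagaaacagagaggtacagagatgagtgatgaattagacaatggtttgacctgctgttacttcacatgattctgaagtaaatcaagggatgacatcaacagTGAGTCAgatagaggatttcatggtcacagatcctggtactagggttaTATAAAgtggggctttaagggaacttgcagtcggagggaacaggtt
Mmp3 (chr9:7445572-7445871, plus strand): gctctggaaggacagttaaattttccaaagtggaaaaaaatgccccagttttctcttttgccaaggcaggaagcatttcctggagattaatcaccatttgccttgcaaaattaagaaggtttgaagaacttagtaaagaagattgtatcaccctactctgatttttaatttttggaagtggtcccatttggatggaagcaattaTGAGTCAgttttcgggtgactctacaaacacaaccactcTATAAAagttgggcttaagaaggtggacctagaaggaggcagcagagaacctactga
Mmp14 (chr14:54431348-54431647, plus strand): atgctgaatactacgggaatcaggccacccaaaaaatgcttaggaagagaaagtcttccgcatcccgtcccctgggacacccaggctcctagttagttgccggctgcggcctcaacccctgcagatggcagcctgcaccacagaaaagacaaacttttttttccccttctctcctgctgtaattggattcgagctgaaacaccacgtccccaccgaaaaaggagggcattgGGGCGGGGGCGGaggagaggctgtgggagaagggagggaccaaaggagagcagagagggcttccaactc
Timp2 (chr11:118355362-118355661, minus strand): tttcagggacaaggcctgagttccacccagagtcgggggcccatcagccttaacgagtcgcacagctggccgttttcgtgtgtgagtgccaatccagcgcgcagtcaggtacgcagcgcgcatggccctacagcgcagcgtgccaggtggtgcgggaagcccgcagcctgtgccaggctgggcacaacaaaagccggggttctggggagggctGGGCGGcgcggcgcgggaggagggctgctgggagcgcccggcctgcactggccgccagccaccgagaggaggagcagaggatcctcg

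The AP-1 letters began 35 bases before the start of Mmp13 and 46 bases before that of Mmp3. Mmp12 had 2 annotated starts in the table, and the letters stood 44 bases before the one shown and were absent from the window of the other. Both strands were searched, and 7.81% of 32851 windows of this length held the AP-1 letters and 13.6% held TATAAA. Of the 10 genes of the chromosome 9 run, 8 had the AP-1 letters and 9 the letters TATAAA, on either strand, in at least 1 window. For Mmp12 the TATAAA letters began at base 5 after the start, and for Mmp8 they were on the opposite strand. These counts are per gene, whereas the shares above are per window. The windows of Mmp11, Mmp14, Timp1, Timp2 and Timp3 held neither, and each held at least 1 GC box, a sequence found in 35.7% of all windows. A match of letters is a description of the window only.

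None of the 9 genes passed a Benjamini-Hochberg adjusted p of 0.05 (limma, 19505 genes) in any of the 6 comparisons between groups. Among all genes the share past that threshold was 0.00513% for DIO-HFD against CON-LFD and 0% for each of the other comparisons. At an unadjusted p below 0.05, 1 of 9 was lower in DIO-HFD than in CON-LFD tumors (5.89% of all genes were lower at that level), 1 of 9 was lower in DIO-VSG than in DIO-HFD (2.67%), and 1 of 9 was lower in DIO-LFD than in DIO-HFD (3.77%). In DIO-VSG against CON-LFD, 2 of 9 were lower (3.10%). No gene of the 9 was higher at that level in any comparison. Of all genes, 7.53% were higher in DIO-HFD against CON-LFD and 2.92% in DIO-VSG against DIO-HFD. In DIO-LFD against DIO-HFD 2.4% were higher, and in DIO-VSG against CON-LFD 3.57%. With 9 genes, a count of 0 lies near these shares. In DIO-VSG against DIO-LFD and DIO-LFD against CON-LFD the count was 0 of 9 (3.39% and 5.43% of all genes in either direction). The genes were Timp3, Mmp2, Timp2, and Mmp9 with Mmp2, respectively, and their values follow by role.

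**Figure D1:**
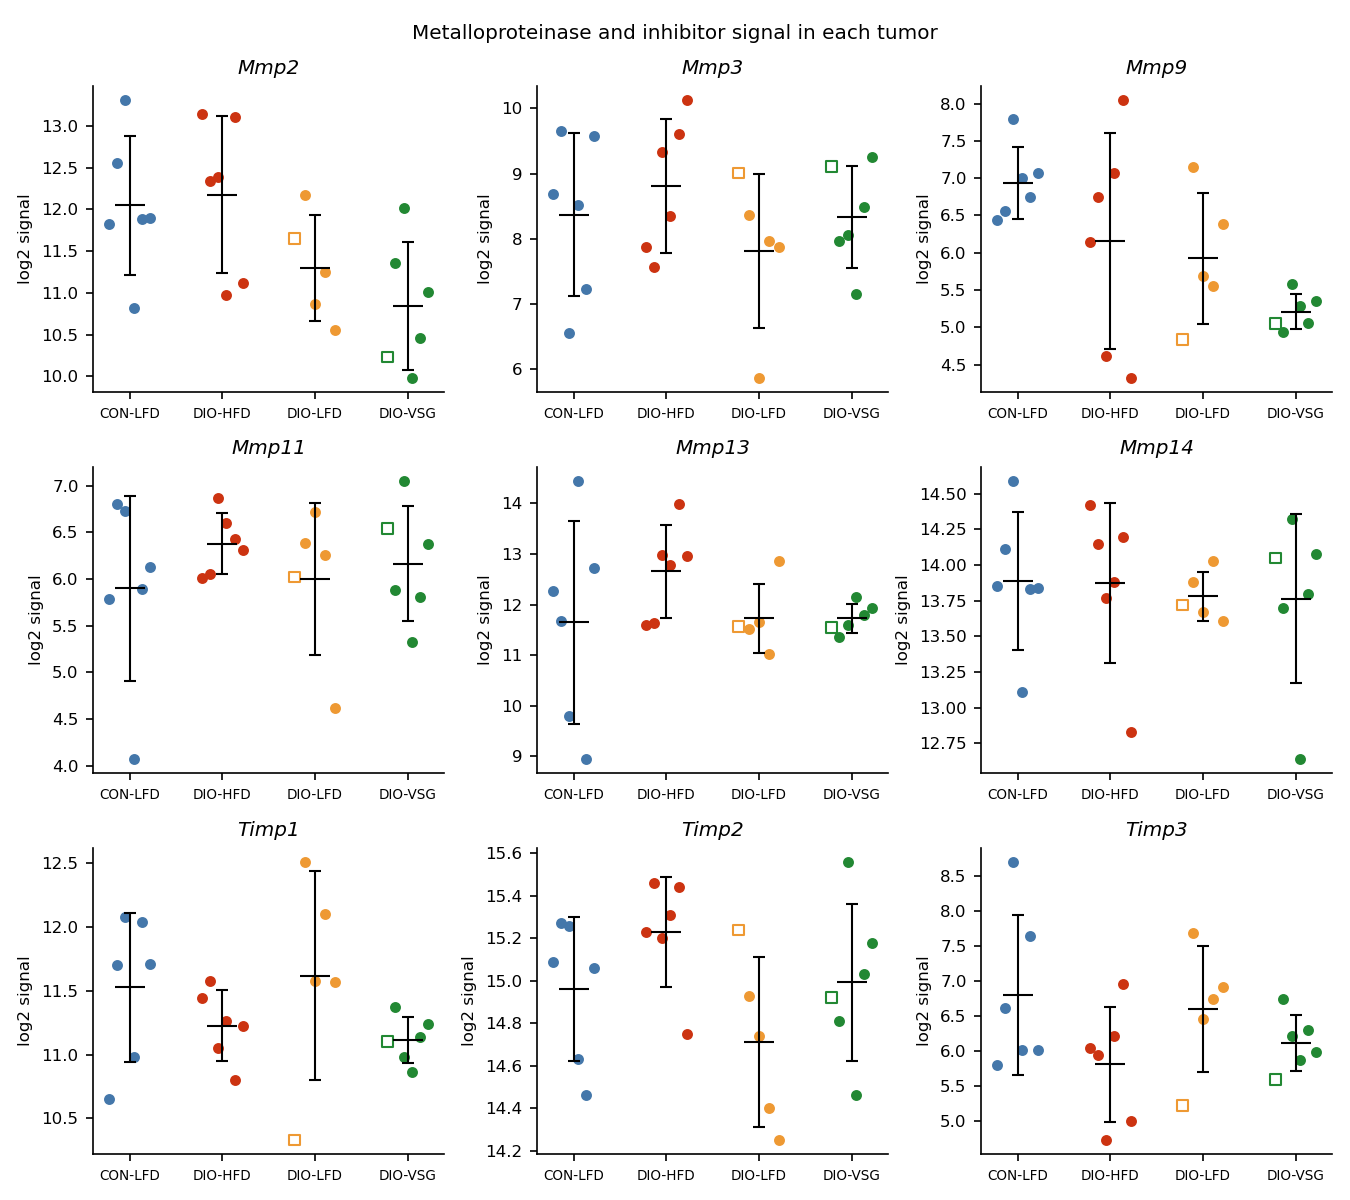
Log2 signal (y axis) of each of the 9 genes in every tumor, by group (x axis). Points are single tumors, open squares the 2 arrays with conflicting labels, and bars the mean ± SD. DIO-VSG tumors lie in a narrow band for Mmp9 (4.94 to 5.58) and Mmp13 (11.36 to 12.14), and CON-LFD tumors are spread from 8.95 to 14.44 for Mmp13.

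The gelatinases MMP-2 and MMP-9 cut denatured collagen and the type IV collagen of basement membranes. Mmp9 had its lowest, median and highest log2 signal at 6.44, 6.88 and 7.80 in the 6 CON-LFD tumors. In DIO-HFD tumors these were 4.32, 6.45 and 8.05, and in DIO-VSG tumors 4.94, 5.17 and 5.58. The 5 DIO-LFD tumors gave 4.84, 7.15, 5.69, 5.56 and 6.38. Every DIO-VSG tumor was thus below every CON-LFD tumor, a separation seen downward in 0.154% of all genes in that comparison, and none of the other 8 genes separated any of the 6 pairs of groups, as 0.0923% to 0.584% of all genes did in 1 direction. All DIO-VSG values, 4.94 to 5.58, lay near the low-signal limit of 4.77. The obese tumors covered the whole range, since DIO-HFD 5 had the highest and DIO-HFD 6 the lowest Mmp9 signal of all 23.

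The mean Mmp9 level ran in the order CON-LFD, 6.94 ± 0.49 (SD, n = 6), obese, 6.16 ± 1.45 (n = 6), dietary weight loss, 5.92 ± 0.88 (n = 5), and DIO-VSG, 5.21 ± 0.24 (n = 6). DIO-VSG minus CON-LFD was -1.73 ± 0.47 (SE) on the log2 scale, a 3.31-fold lower signal with an adjusted p of 0.597 (limma). Fitted on the 12 arrays of those groups alone, where the large DIO-HFD spread does not enter, the same difference had an adjusted p of 0.0274, and in that fit it was the only gene called. Leaving out 1 of the 12 arrays at a time gave adjusted p from 0.0127 to 0.127, and the call was lost in 8 of the 12 cases: without CON-LFD 4, 5 or 6, or DIO-VSG 1, 2, 4, 5 or 6. Of the 2 arrays of conflicting label only DIO-VSG 1 is in this fit, and the case without it gave 0.127. DIO-VSG minus DIO-HFD for Mmp9 was -0.95 ± 0.47 (adjusted p = 0.883, limma) and DIO-HFD minus CON-LFD -0.78 ± 0.47 (adjusted p = 0.502). The other neighbors in the order of group means differed by -0.24 ± 0.50 (DIO-LFD minus DIO-HFD, adjusted p = 0.952) and -0.71 ± 0.50 (DIO-VSG minus DIO-LFD, adjusted p = 1), and none of the neighboring pairs was called. Without the muscle-rich arrays these 2 became 0.26 and -1.16. Single tumors weighed on the comparisons with DIO-HFD, since DIO-HFD minus CON-LFD was -0.41 without DIO-HFD 6 and -0.47 without DIO-HFD 3, and DIO-VSG minus DIO-HFD was -0.57 without DIO-HFD 5.

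Mmp2 had its lowest, median and highest signal at 10.82, 11.89 and 13.31 in CON-LFD tumors and at 10.97, 12.37 and 13.14 in DIO-HFD tumors. In DIO-VSG tumors the values were 9.98, 10.74 and 12.02, and the 5 DIO-LFD tumors had 11.65, 12.17, 10.87, 11.25 and 10.56. The groups overlapped, with DIO-HFD 4 and 6, at 10.97 and 11.12, inside the DIO-VSG range. DIO-VSG minus DIO-HFD was -1.33 ± 0.43 (2.52-fold lower, unadjusted p = 0.00533, adjusted p = 0.860, limma) and DIO-VSG minus CON-LFD -1.21 ± 0.43 (adjusted p = 0.634). Dietary weight loss gave a smaller mean difference from DIO-HFD, -0.88 ± 0.45 (adjusted p = 0.818), which was -0.46 without the muscle-rich arrays, and DIO-VSG minus DIO-LFD was -0.46 with a 95% interval from -1.40 to 0.48. Leaving out DIO-LFD 2, DIO-VSG 3 or DIO-VSG 4 changed the last difference to -0.24, -0.69 or -0.28.

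Of 22 fibroblast markers measured, 20 had a lower mean in DIO-VSG than in CON-LFD tumors, and the median difference was -0.999 against 0.02 over all genes. None passed the adjusted threshold (limma). At an unadjusted p below 0.05, 9 were lower (3.10% of all genes) and 1, Prrx1, was higher (3.57%). By tumor, the mean of this list ran from 9.16 to 11.06 in CON-LFD and from 8.24 to 10.17 in DIO-VSG. Obese tumors lay between 8.89 and 10.15, and those of DIO-LFD mice between 8.91 and 10.68. None of the 22 was at 0, and only Pi16 lay under the low-signal limit on average. Their part in the lower Mmp2 and Mmp9 levels was not tested.

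MMP-13 is the main collagenase of mice and cuts fibrillar collagens, type II among them. Mmp13 in the 6 CON-LFD tumors was 12.27, 11.68, 9.80, 14.44, 8.95 and 12.73 in order of replicate number. In DIO-HFD tumors the lowest, median and highest were 11.59, 12.87 and 13.99, in DIO-LFD 11.03, 11.57 and 12.85, and in DIO-VSG 11.36, 11.70 and 12.14. Lean controls thus held both the highest and the lowest tumor of the series, 44.9-fold apart, while the 6 DIO-VSG tumors lay within 1.72-fold.

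The mean of Mmp13 was highest in DIO-HFD tumors, at 12.65 ± 0.91 (SD, n = 6), and between 11.65 and 11.73 in the other groups. DIO-HFD minus CON-LFD was 1.01 ± 0.62 (2.01-fold, adjusted p = 0.511, limma). Against DIO-HFD, DIO-VSG tumors were at -0.92 ± 0.62 (adjusted p = 0.922) and DIO-LFD tumors at -0.93 ± 0.66 (adjusted p = 0.861), comparisons that share the DIO-HFD samples. The lowest CON-LFD tumors, 3 and 5, were also those with muscle list means of 13.36 and 15.07. Without the 8 muscle-rich arrays DIO-HFD minus CON-LFD became 0.08 (adjusted p = 0.971), and DIO-VSG minus CON-LFD turned from 0.09 to -1.06. Single controls weighed on DIO-HFD minus CON-LFD as well, which was 0.64, 1.57 and 0.47 without CON-LFD 3, 4 and 5.

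Among the stromelysins, MMP-3 cuts many matrix proteins and activates other proenzymes, and MMP-11 is a stromal enzyme that is activated inside the cell by furin. Mmp3 varied 19.3-fold over the 23 tumors, from 5.86 in DIO-LFD 3 to 10.13 in DIO-HFD 6, and its ranges in all groups overlapped. Its mean was 8.81 ± 1.03 (SD, n = 6) in DIO-HFD and 7.81 ± 1.18 (n = 5) in DIO-LFD tumors, a DIO-LFD minus DIO-HFD difference of -0.99 ± 0.60 (SE, adjusted p = 0.832, limma). It was -0.50 without DIO-LFD 3, and -1.88 without the muscle-rich arrays. The latter leaves only DIO-LFD 2 and DIO-LFD 3 (8.37 and 5.86) in the DIO-LFD group. Mmp3 in DIO-VSG differed from CON-LFD by -0.03, with a 95% interval from -1.21 to 1.15, and by -0.38 without the muscle-rich arrays. Mmp11 lay near the low-signal limit, with group means between 5.90 and 6.38, and its difference farthest from 0 was 0.48 ± 0.39 for DIO-HFD minus CON-LFD (adjusted p = 0.633). In CON-LFD 4 it was 4.07, against 5.78 to 6.80 in the rest of that group. Without that tumor the Mmp11 difference was 0.11, and without the muscle-rich arrays 0.76.

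Mmp14, which encodes the membrane-bound activator of proMMP-2, had a group mean of 13.89 in lean controls, 13.88 in obese mice, 13.78 after the diet switch and 13.77 after gastrectomy. The 6 differences lay between -0.12 and -0.01, each with an adjusted p of 0.948 or more (limma), and their 95% intervals reached from -0.70 to 0.57. Without the muscle-rich arrays all 6 turned to values between 0.009 and 0.34, none of them called. Single tumors still differed up to 3.86-fold, with DIO-VSG 4 lowest at 12.64 and CON-LFD 3 highest at 14.59.

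Of the inhibitors, TIMP-1 is secreted and acts on most of these enzymes but weakly on MMP-14, TIMP-2 acts on MMP-14 as well, and TIMP-3 is bound to the matrix and also inhibits ADAM proteases. Timp3 in CON-LFD tumors was 5.80, 6.61, 8.70, 6.02, 7.64 and 6.02, and in DIO-HFD tumors 6.05, 5.94, 4.73, 6.21, 6.95 and 5.00. The CON-LFD tumors with the highest values were numbers 3 and 5, both muscle-rich and with fibroblast list means of 11.06 and 10.53. DIO-HFD minus CON-LFD was -0.98 ± 0.46 (SE; 1.98-fold lower, unadjusted p = 0.0419, adjusted p = 0.352, limma), and without the muscle-rich arrays it was -0.35 (adjusted p = 0.801). Without CON-LFD 3 alone it was -0.60. The part of fibroblast or muscle content in it was not tested. Timp3 in DIO-LFD minus DIO-HFD was 0.79 ± 0.48 (adjusted p = 0.832) and in DIO-VSG minus DIO-HFD 0.31 ± 0.46 (adjusted p = 0.972). The first of these was 1.30 without the muscle-rich arrays and 0.52 without DIO-LFD 2, and the second lay between 0.09 and 0.53 with 1 array left out, the ends being those without DIO-HFD 3 and DIO-HFD 5.

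Timp2 had a signal between 14.25 and 15.56 in every tumor, a 2.48-fold range. Its lowest, median and highest values were 14.75, 15.27 and 15.46 in DIO-HFD tumors, and the 5 DIO-LFD tumors had 15.24, 14.93, 14.74, 14.40 and 14.25. DIO-LFD minus DIO-HFD was -0.52 ± 0.21 (1.43-fold lower, unadjusted p = 0.0205, adjusted p = 0.727, limma). The DIO-LFD tumor nearest the obese group, at 15.24, is the one with conflicting labels, and without both such arrays the difference was -0.65 (adjusted p = 0.433). In DIO-VSG minus DIO-HFD it was -0.24 ± 0.20 (adjusted p = 0.943), -0.06 without the muscle-rich arrays and -0.13 without DIO-VSG 4. Timp1 had its highest mean in DIO-LFD, 11.62 ± 0.82 (SD, n = 5), and its lowest in DIO-VSG, 11.12 ± 0.18 (n = 6), a difference of -0.50 ± 0.29 (SE, adjusted p = 1, limma) with overlapping groups. It was -0.93 without the muscle-rich arrays, -0.83 without DIO-LFD 1 and -0.28 without DIO-LFD 2.

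**Figure D2:**
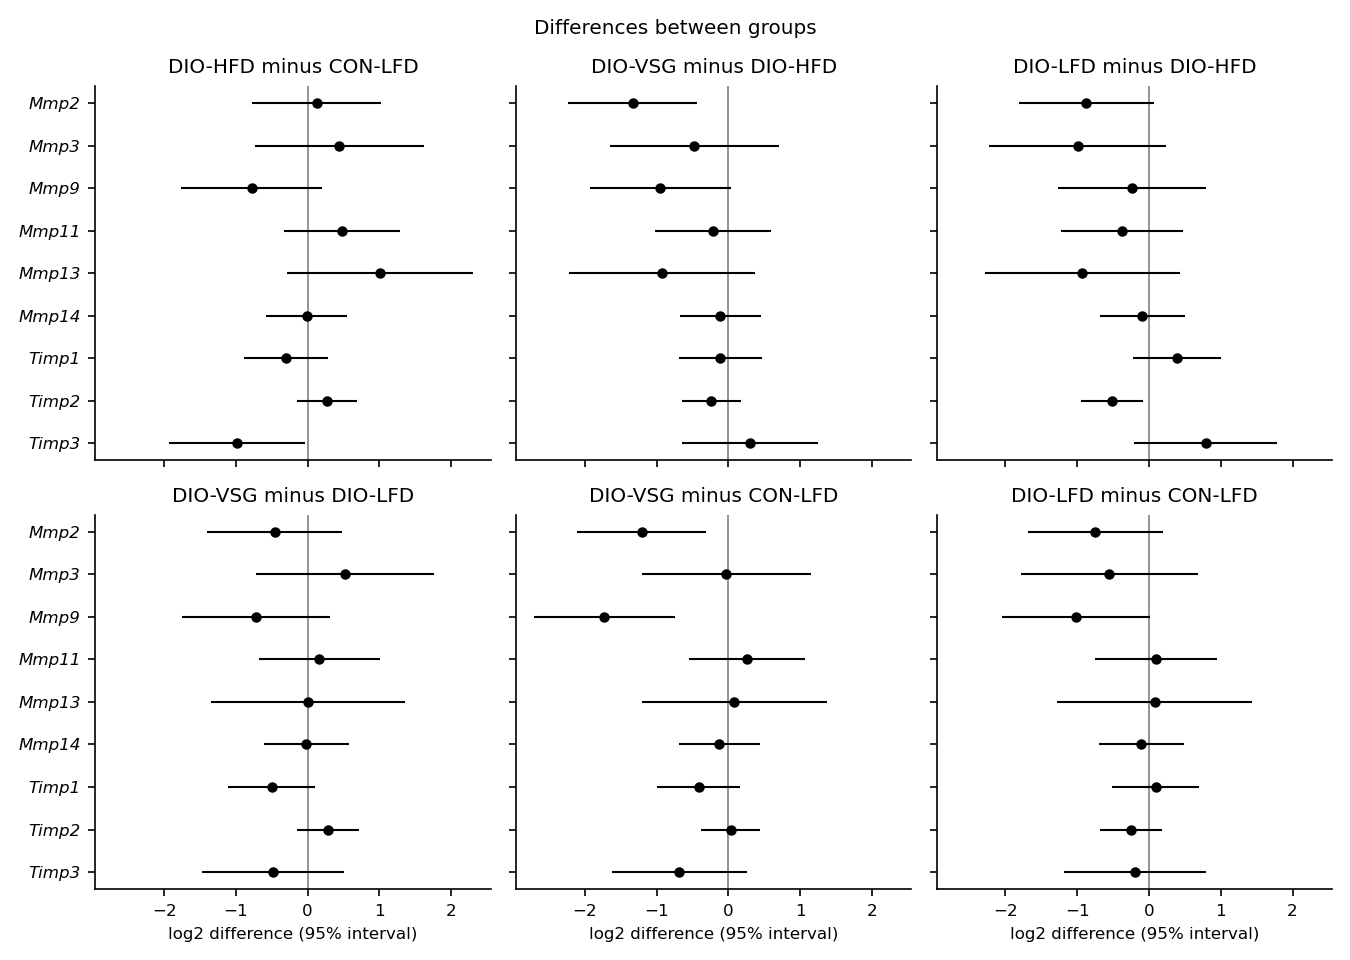
Difference in log2 signal (x axis) between group means for the 9 genes (y axis) in the 6 comparisons, one per panel. Points are limma estimates and lines 95% intervals. The intervals that do not reach 0 are those of Timp3 (-0.98) for DIO-HFD minus CON-LFD, Mmp2 (-1.33) for DIO-VSG minus DIO-HFD, Timp2 (-0.52) for DIO-LFD minus DIO-HFD, and Mmp9 (-1.73) and Mmp2 (-1.21) for DIO-VSG minus CON-LFD.

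Counted over the 9 genes, 8 had a lower mean in DIO-VSG than in DIO-HFD tumors, with a median difference of -0.24 against -0.01 over all genes, of which 48.3% were higher. In DIO-LFD against DIO-HFD, 7 of 9 were lower, with a median of -0.38 against -0.03 over all genes. Both counts use the same DIO-HFD tumors. In DIO-HFD against CON-LFD, 5 were higher and 4 lower, with a median of 0.13. Centering each array on its own median moved the median of all genes in that comparison from 0.03 to 0.14.

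The groups also differed in the spread between their tumors. For 5 of the 9 genes (Mmp3, Mmp9, Mmp13, Timp1 and Timp3) the smallest SD of the 4 groups was that of DIO-VSG tumors, compared with 26.2% of all genes. The median SD of the 9 genes was 0.40 in DIO-VSG tumors and 0.81 to 0.83 in the other groups, whereas over all genes it was 0.35 in DIO-VSG and 0.35 to 0.38 in the others. The ratio of the CON-LFD to the DIO-VSG SD was 7.02 for Mmp13, larger than in 99.9% of all genes, 3.21 for Timp1, 2.89 for Timp3 and 2.05 for Mmp9. For Mmp14 the ratio was 0.81. The muscle-rich CON-LFD 3 and 5 were in these SDs, and no SD was computed without them. They had Mmp13 at 9.80 and 8.95, the lowest of CON-LFD, and Timp3 at 8.70 and 7.64, the highest. The rest of CON-LFD ran from 11.68 to 14.44 for Mmp13, against 11.36 to 12.14 in DIO-VSG. For Timp3 the rest ran from 5.80 to 6.61, inside the DIO-VSG range of 5.59 to 6.74. CON-LFD 3 also had the highest Mmp9 of its group, 7.80. Mmp9 values in DIO-VSG tumors lay near the low-signal limit. No test of spread was made, and the comparison is a description of these tumors.

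**Figure D3:**
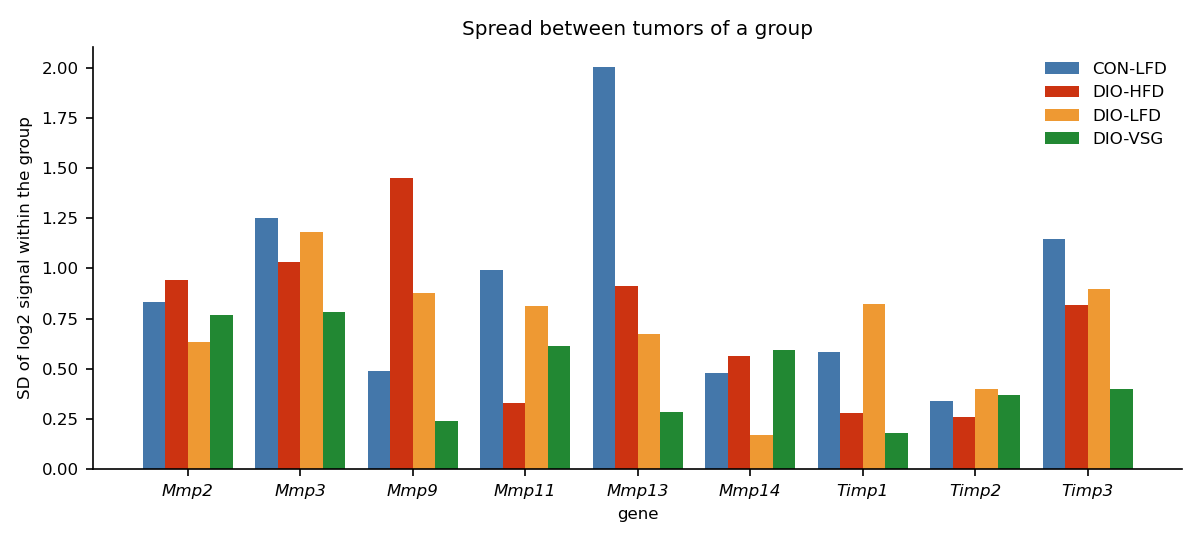
SD of log2 signal within each group (y axis) for the 9 genes (x axis), one bar per group. The Mmp13 bar is 2.00 for CON-LFD and 0.29 for DIO-VSG tumors.

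Several of the genes varied together from tumor to tumor. Of 36 pairs among the 9 genes, 12 had an adjusted permutation p below 0.05 for Pearson's r over the 23 tumors (Benjamini-Hochberg over the 36 pairs). The share of such pairs among other genes was not computed, so the count cannot be set against a background. Mmp2, Mmp14 and Timp2, whose proteins meet in the activation of proMMP-2, were correlated in all 3 pairings. Pearson's r was 0.66 for Mmp2 with Mmp14 (rho = 0.66, adjusted permutation p = 0.00708 and 0.0158), 0.61 for Mmp14 with Timp2 (rho = 0.70, adjusted permutation p = 0.0147 and 0.0115) and 0.60 for Mmp2 with Timp2 (rho = 0.63, adjusted permutation p = 0.0148 and 0.0190). Without the 2 tumors farthest from the median of the first gene r was 0.50, 0.57 and 0.54, and with the group means subtracted 0.74, 0.67 and 0.65. Within CON-LFD, DIO-HFD and DIO-VSG, r for Mmp14 with Timp2 was 0.68, 0.88 and 0.88. Mmp2 with Mmp14 gave r = 0.91 within the 8 muscle-rich tumors and 0.41 within the other 15, while Mmp14 with Timp2 gave 0.56 and 0.80 and Mmp2 with Timp2 0.77 and 0.61. Mmp11 was correlated with Timp2 (r = 0.60, rho = 0.55, adjusted permutation p = 0.0147 and 0.0419; r = 0.47 without the 2 farthest tumors) and with Mmp14 (r = 0.54, rho = 0.52, adjusted permutation p = 0.0429 and 0.0621; r = 0.48 without the 2 farthest), but within DIO-HFD r was -0.07 and -0.27.

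The inhibitors Timp1 and Timp3 were correlated over all tumors (r = 0.69, rho = 0.61, adjusted permutation p = 0.00708 and 0.0212; r = 0.60 without the 2 farthest tumors), though r was -0.16 within DIO-HFD. Mmp9 followed Timp3 (r = 0.66, rho = 0.60, adjusted permutation p = 0.00708 and 0.0235; r = 0.62 without the 2 farthest), with r = 0.97 within DIO-HFD and -0.23 within DIO-VSG tumors (SD 0.24 and 0.40). Timp1 and Mmp13 ran in opposite directions (r = -0.51, rho = -0.51, adjusted permutation p = 0.0429 and 0.0621; r = -0.43 without the 2 farthest), as they did within CON-LFD (-0.73), DIO-HFD (-0.96) and DIO-VSG (-0.58). Timp2 was unlike the other inhibitors, at r = -0.27 with Timp1 and -0.13 with Timp3.

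**Figure D4:**
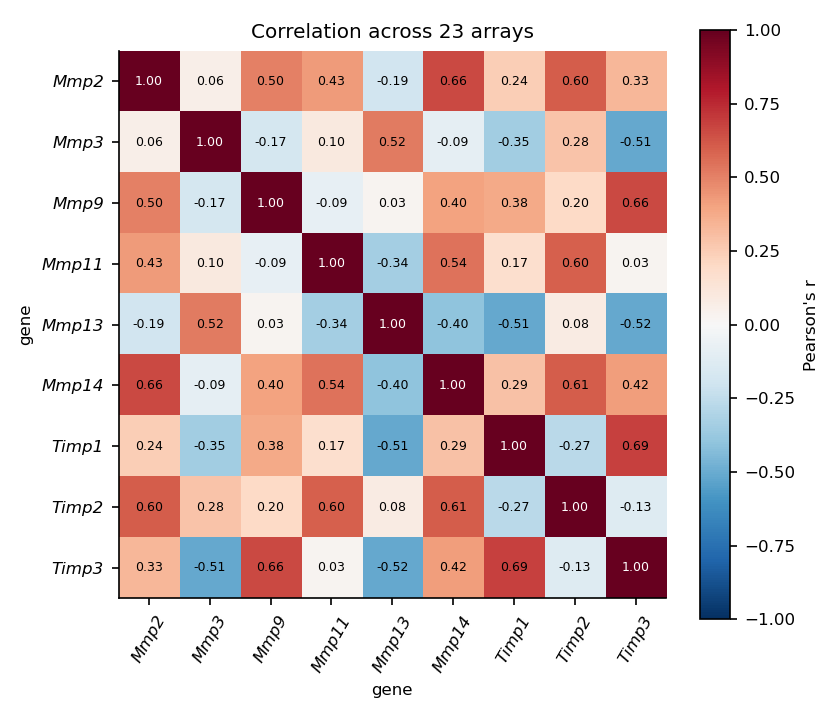
Pearson's r across the 23 arrays for each pair of the 9 genes (both axes), colored from -1 to 1. Mmp2, Mmp14 and Timp2 form a positive block (0.60 to 0.66), and Timp1 with Timp3 reaches 0.69.

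Against markers of other cell types, 54 pairs of a gene and a cell type list were tested. Of these, 10 had an adjusted permutation p below 0.05 for Pearson's r. The pair of Mmp13 and muscle, 1 of the 10, is given below within muscle-rich and other tumors. Muscle list means had no clear break at the limit of 9, with 8.77 in DIO-HFD 4 and 9.92 in DIO-VSG 2. Timp3 followed the fibroblast list most closely (r = 0.71, rho = 0.64, adjusted permutation p = 0.00594 and 0.0256; r = 0.61 without the 2 farthest tumors), with r of 0.83, 0.82 and 0.80 within CON-LFD, DIO-HFD and DIO-VSG. Mmp2 (r = 0.62, rho = 0.59), Mmp9 (r = 0.60, rho = 0.58) and Timp1 (r = 0.57, rho = 0.57) were also correlated with it, each with adjusted permutation p of 0.0275 and 0.0414, and without the 2 farthest tumors r was 0.46, 0.50 and 0.53. For Mmp9 the relation did not hold within DIO-VSG tumors (r = -0.03), where its values lay near the low-signal limit.

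Mmp11 followed the endothelial list (r = 0.65, rho = 0.65, adjusted permutation p = 0.0140 and 0.0256; r = 0.61 without the 2 farthest tumors), with r = 0.19 within DIO-HFD. So did Mmp14 (r = 0.59, rho = 0.64, adjusted permutation p = 0.0275 and 0.0256; r = 0.62 without the 2 farthest) and Timp2 (r = 0.58, rho = 0.55, adjusted permutation p = 0.0275 and 0.0509; r = 0.50 without the 2 farthest). Relations of Mmp13 (r = 0.58) and Mmp14 (r = -0.59) to the neutrophil list had rank correlations of 0.43 and -0.33 with adjusted permutation p of 0.176 and 0.305, and without the 2 farthest tumors r was 0.45 and -0.32, so that the Mmp14 relation rested on those tumors. In 7 of the 15 neutrophil genes measured, Mpo and Elane among them, the mean was under the low-signal limit. For Mmp13 and muscle, r was -0.62 within the 8 muscle-rich tumors and 0.05 within the other 15.

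Over single genes, those most like each of the 9 were named by the highest r across the 23 arrays among 11523 genes above the low-signal limit, with predicted gene models (symbols such as Gm or Rik) left out. For Mmp13 they were Fabp5 (0.86), its chromosome 9 neighbor Mmp12 (0.85) and Hebp1 (0.81). Mmp2 was most like Sulf2 (0.87), Col3a1, a fibrillar collagen (0.86), and Heg1 (0.81), and Timp3 most like Bgn, a matrix proteoglycan (0.82), Gpc4 (0.81) and Fzd1 (0.80). Mmp14 was nearest to Wasf2 (0.93), Ckap4 (0.88) and Ctnnd1 (0.88), and Timp2 to Steap3 (0.87), Vat1 (0.87) and Slc10a3 (0.86). For Timp1 they were Tmem45a (0.82), Col5a2 (0.72) and Lrrc17 (0.71). The nearest genes were Gstm2 (0.75), Azin2 (0.74) and Itih5 (0.74) for Mmp9, Sema3a (0.77), Insig1 (0.75) and Gja1 (0.74) for Mmp3, and Prpf6, Zfp46 and Hacd3 (each 0.80) for Mmp11.

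Mmp12, the macrophage elastase whose promoter is shown above, tracked Mmp13 across tumors, with r = 0.88 once group means were subtracted. Its lowest, median and highest signals were 14.36, 15.09 and 16.75 in DIO-HFD and 13.15, 13.54 and 13.74 in DIO-VSG tumors, so these groups did not overlap, which was so downward for 0.0923% of all genes. DIO-VSG minus DIO-HFD was -1.78 ± 0.55 for Mmp12 (3.44-fold lower, unadjusted p = 0.00378, adjusted p = 0.860, limma) and DIO-LFD minus DIO-HFD -1.43 ± 0.58 (2.70-fold lower, adjusted p = 0.736). Macrophage markers gave a list mean of 11.36 ± 0.52 (SD, n = 6) in DIO-HFD and 11.49 ± 0.66 (n = 6) in DIO-VSG tumors, with ranges from 10.45 to 11.96 and from 10.38 to 12.08. Of the 16 markers 11 had a higher and 5 a lower mean in DIO-VSG, and at an unadjusted p below 0.05 Fcgr1 was higher (0.78, with 2.92% of all genes higher at that level) and Mrc1 lower (-1.24, 2.67%). Their part in the Mmp12 difference was not tested. In the chromosome 9 run, r was also 0.70 for Mmp3 with Mmp10, 0.64 for Mmp13 with Mmp10 and 0.52 for Mmp13 with Mmp3, given as a description over 23 arrays. For Mmp13 with Mmp3, rho was 0.50 (adjusted permutation p = 0.0643). Within CON-LFD, DIO-HFD and DIO-VSG its r was 0.67, 0.82 and -0.23, and in tumors that were not muscle-rich 0.37. Mmp8, without the AP-1 letters, was at 0.48 with Mmp13. Mmp7, which has both the AP-1 letters and the letters TATAAA in 1 of its 2 windows, was at 0.01 with Mmp13, 0.05 with Mmp12, 0.11 with Mmp3 and -0.11 with Mmp10.

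**Figure D5:**
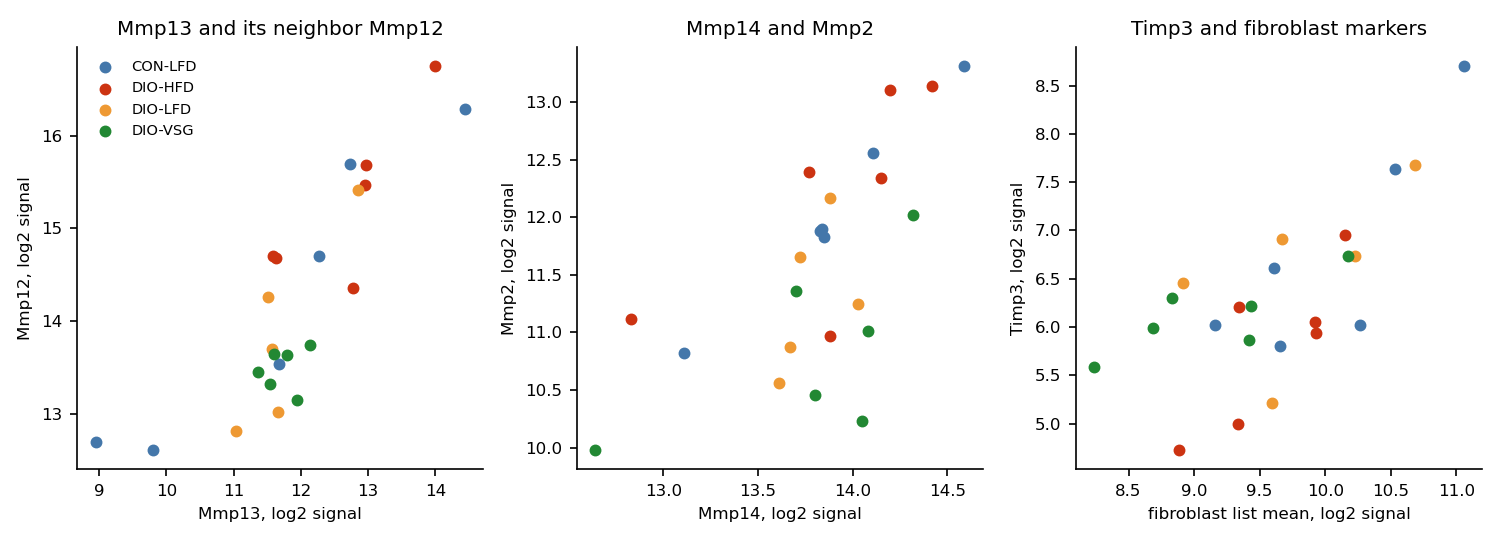
Log2 signal of Mmp12 against Mmp13, of Mmp2 against Mmp14, and of Timp3 against the mean of the fibroblast list, 1 point per tumor, colored by group. In the left panel DIO-VSG tumors form a tight cluster (Mmp12 between 13.15 and 13.74) below the DIO-HFD tumors.

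Of the other metalloproteinases and Timp4, 16 of 18 were measured and 7 of these were under the low-signal limit. None passed the adjusted threshold in any comparison (limma), and 1 was lower at an unadjusted p below 0.05 in each of DIO-HFD against CON-LFD, DIO-VSG against DIO-HFD and DIO-LFD against DIO-HFD (5.89%, 2.67% and 3.77% of all genes). Mmp23, a membrane enzyme, differed by -1.04 ± 0.40 in DIO-HFD minus CON-LFD (adjusted p = 0.253) and by -1.21 ± 0.40 in DIO-VSG minus CON-LFD (adjusted p = 0.613). Among 19 ADAM and ADAMTS proteases none passed either, and in those comparisons 2, 1 and 0 had an unadjusted p below 0.05, as 13.4%, 5.58% and 6.17% of all genes did in either direction. Adamts15 had the smallest p of this list, at -0.98 ± 0.22 in DIO-VSG minus CON-LFD (unadjusted p = 0.000213, adjusted p = 0.558, limma). Its means there, 2.98 and 3.955, were under the low-signal limit. Adamts10 was at 0.74 ± 0.21 in DIO-LFD minus CON-LFD (unadjusted p = 0.00196, adjusted p = 0.835). Of 24 genes that activate or restrain these enzymes, 0 passed in either direction, with 2, 1 and 1 at an unadjusted p below 0.05 in the same comparisons, beside the same 13.4%, 5.58% and 6.17%. The lysosomal protease gene Ctsl differed by 0.32 ± 0.15 in DIO-HFD minus CON-LFD (adjusted p = 0.359).

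Among 20 matrix genes whose products these enzymes cut or bind, collagens, laminins, fibronectin and proteoglycans among them, 0 passed the adjusted threshold in any comparison (limma). In DIO-VSG against CON-LFD tumors 19 of the 20 had a lower mean, 6 of them at an unadjusted p below 0.05 (3.10% of all genes), with a median difference of -0.60 against 0.02 over all genes. Acan was the exception, with a higher mean at that level (4.25 against 3.81, both under the low-signal limit, unadjusted p = 0.0422, adjusted p = 0.738). In DIO-VSG against DIO-HFD 17 of 20 were lower, 1 at that level (2.67%), with a median of -0.32 against -0.01. Several of these genes are also on the fibroblast list.

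Of the 7 AP-1 subunit genes, whose products bind the letters marked in the Mmp13 and Mmp3 windows, 0 passed the adjusted threshold. At an unadjusted p below 0.05, 2 were lower in DIO-HFD than in CON-LFD (5.89% of all genes), and 1 was higher in DIO-VSG (2.92%) and 1 in DIO-LFD (2.4%) than in DIO-HFD tumors. Fos differed by -0.91 ± 0.32 in DIO-HFD minus CON-LFD (unadjusted p = 0.00960, adjusted p = 0.212, limma), and DIO-VSG minus DIO-HFD was 1.04 ± 0.32 (adjusted p = 0.860) and DIO-LFD minus DIO-HFD 0.96 ± 0.34 (adjusted p = 0.694). Fosb differed by -0.83 ± 0.34 in DIO-HFD minus CON-LFD (adjusted p = 0.280).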

How the data were processed

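Total RNA of 23 tumors had been labeled and hybridized to Mouse Clariom S HT arrays. Values were used as deposited, as log2 signals. The authors had scaled them in Transcriptome Analysis Console 4.0.2 with its SST-RMA method, a signal transformation followed by multichip averaging. The array background and a detection limit per probe set were not given in the sources used here, and arrays have no read depth: precision is set by how many there were. The platform annotation gave 1 symbol for 19572 of 22206 probe sets and several for 0, while 2634 are unnamed here. For 55 genes with several probe sets the one with the highest mean was kept, which gave 19505 genes. The low-signal limit was the 40th percentile of probe set means, above which 11886 genes lay. The lowest correlation between arrays was 0.961.

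Group means of all 23 arrays were fitted with limma 3.58.1 in R 4.3.3 (lmFit and eBayes, two-sided, 19 residual degrees of freedom), and p-values were adjusted over all genes by the Benjamini-Hochberg method with a threshold of 0.05. The fit was tested on simulated data. Correlations used 100000 permutations in scipy 1.17.1. The genes, marker lists and the limit for muscle-rich arrays were chosen with earlier results of these data known. All 9 genes were named. From other lists, genes with the smallest p or the difference farthest from 0 were eligible. Of these, Mmp12 and Mmp10 in the chromosome 9 run, and Mmp23, Adamts10, Adamts15 and Fosb, were singled out after their values were seen. The labels do not name the mouse of each tumor, so p-values measure the spread between these tumors. Alternatives were low-signal genes left out, every probe set, only the groups compared, trended and robust variance, quantile or median scaling, array weights, the conflicting labels, a replicate block, muscle content and each array left out. Promoter windows came from RefSeq.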

Additional observations from a re-analysis of the deposited data

Results flagged for a closer look

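By Dixon's q, the gap to the nearest value over the range, a lone tumor stood apart in 3 of 36 sets of a gene and a group. Chance gives about 1 in 20. All 3 were only just past the critical value of 0.625, with q of 0.626, 0.631 and 0.634. Mmp11 was 4.07 in CON-LFD 4, with 5.78 as the nearest value of that group. Mmp14 was 12.64 in DIO-VSG 4, with 13.70 as the nearest. Timp2 was 14.75 in DIO-HFD 6, with 15.20 as the nearest. CON-LFD 4 also had the highest Mmp13 signal of all tumors (14.44), and DIO-VSG 4 the lowest Mmp2 signal (9.98).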

How the results depend on the processing

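None of the 9 genes was called in any comparison under the alternatives, except that Mmp9 in DIO-VSG minus CON-LFD was called with only the arrays of the 2 groups, which made 1 gene called (adjusted p = 0.0274, limma). Of 54 differences, 32 kept their sign throughout, and the 22 that did not had main values of at most 0.47 in size. With array weights, the sign turned to 0.066 for Mmp14 (DIO-HFD minus CON-LFD), 0.026 for Mmp3 (DIO-VSG minus DIO-HFD), 0.065 for Mmp14 (DIO-VSG minus DIO-LFD), 0.049 for Mmp3 (DIO-VSG minus CON-LFD) and -0.0076 for Mmp11 (DIO-LFD minus CON-LFD). With each array centered on its median, the sign turned to 0.10 for Mmp14 (DIO-HFD minus CON-LFD), 0.04 for Mmp14 (DIO-VSG minus DIO-LFD) and 0.072 for Mmp3 (DIO-VSG minus CON-LFD). With the 2 arrays in the groups of their other label, the sign turned to 0.021 for Timp1 (DIO-VSG minus DIO-HFD) and -0.018 for Mmp11 (DIO-VSG minus DIO-LFD). With the muscle list mean as a covariate, the sign turned to -0.51 for Mmp13 (DIO-VSG minus DIO-LFD), -0.20 for Mmp13 (DIO-VSG minus CON-LFD) and -0.029 for Timp2 (DIO-VSG minus CON-LFD). With quantile normalization, the sign turned to 0.013 for Mmp3 (DIO-VSG minus CON-LFD). Without the 2 arrays of conflicting label, the sign turned to 0.035 for Mmp9 (DIO-LFD minus DIO-HFD) and 0.15 for Timp3 (DIO-LFD minus CON-LFD). Without the muscle-rich arrays, the sign turned to -0.11 for Mmp3 (DIO-HFD minus CON-LFD), 0.038 for Mmp14 (DIO-HFD minus CON-LFD), 0.30 for Mmp14 (DIO-VSG minus DIO-HFD), 0.26 for Mmp9 (DIO-LFD minus DIO-HFD), 0.098 for Mmp11 (DIO-LFD minus DIO-HFD), 0.009 for Mmp14 (DIO-LFD minus DIO-HFD), -0.11 for Mmp11 (DIO-VSG minus DIO-LFD), 0.29 for Mmp14 (DIO-VSG minus DIO-LFD), -1.06 for Mmp13 (DIO-VSG minus CON-LFD), 0.34 for Mmp14 (DIO-VSG minus CON-LFD), -1.20 for Mmp13 (DIO-LFD minus CON-LFD), 0.048 for Mmp14 (DIO-LFD minus CON-LFD) and 0.96 for Timp3 (DIO-LFD minus CON-LFD). With 1 array left out at a time, differences that changed sign ran from -0.12 to 0.38 for Mmp2 (DIO-HFD minus CON-LFD), -0.17 to 0.20 for Mmp14 (DIO-HFD minus CON-LFD), -0.39 to 0.23 for Mmp3 (DIO-VSG minus CON-LFD), -0.10 to 0.44 for Mmp11 (DIO-VSG minus CON-LFD), -0.45 to 0.64 for Mmp13 (DIO-VSG minus CON-LFD), -0.28 to 0.10 for Mmp14 (DIO-VSG minus CON-LFD), -0.082 to 0.14 for Timp2 (DIO-VSG minus CON-LFD), -0.27 to 0.45 for Mmp11 (DIO-LFD minus CON-LFD), -0.46 to 0.64 for Mmp13 (DIO-LFD minus CON-LFD), -0.26 to 0.034 for Mmp14 (DIO-LFD minus CON-LFD), -0.13 to 0.41 for Timp1 (DIO-LFD minus CON-LFD), -0.47 to 0.18 for Timp3 (DIO-LFD minus CON-LFD), -0.32 to 0.12 for Mmp14 (DIO-VSG minus DIO-HFD), -0.60 to 0.14 for Mmp9 (DIO-LFD minus DIO-HFD), -0.30 to 0.016 for Mmp14 (DIO-LFD minus DIO-HFD), -0.18 to 0.34 for Mmp11 (DIO-VSG minus DIO-LFD), -0.17 to 0.29 for Mmp13 (DIO-VSG minus DIO-LFD) and -0.13 to 0.21 for Mmp14 (DIO-VSG minus DIO-LFD). The cause was not tested.

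At an unadjusted p below 0.05, the count of the 9 genes ranged over the alternatives from 0 to 2 in DIO-HFD against CON-LFD, 1 to 2 in DIO-VSG against DIO-HFD, 0 to 4 in DIO-LFD against DIO-HFD, 0 to 2 in DIO-VSG against DIO-LFD, 1 to 3 in DIO-VSG against CON-LFD and 0 to 2 in DIO-LFD against CON-LFD. In the main fit, the shares of all genes at that level were, in the same order, 13.4%, 5.58%, 6.17%, 3.39%, 6.68% and 5.43%. These shares were not counted under the alternatives, so the ranges cannot be set against them. Counts over all genes moved in DIO-HFD against CON-LFD, where 1 gene was called: from 0 with an array left out to 196 with the 2 arrays in the groups of their other label, 66 without those arrays, 17 with trended and robust variance and 13 with array weights. In DIO-LFD against DIO-HFD up to 9 were called in place of 0. Replicate numbers did not pair the tumors, since deviations of same-numbered arrays correlated between -0.28 and 0.34. With the numbers as a block, 12 genes were called in DIO-HFD against CON-LFD in place of 1, 0 of the 9 genes was called in any comparison (lowest adjusted p = 0.306), and the sign turned to -0.10 for Mmp13 (DIO-VSG minus DIO-LFD) and 0.035 for Mmp14 (DIO-VSG minus DIO-LFD).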
